A study of Mus musculus with 8 samples.

Results

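Messenger RNA levels of 10 genes that direct skeletal muscle differentiation and myoblast fusion were compared between the soleus of control and Dnm2 wt/K562E mice. The genes were the 4 myogenic regulatory factors Myf5, Myod1, Myog and Myf6, the 3 Mef2 factors Mef2a, Mef2c and Mef2d, and the 3 surface genes Mymk, Mymx and Cdh15. They were picked by name and family, with earlier results of these data known. They are 10 of the 22880 gene identifiers with counts, and all 10 passed the filter on low counts that left 14001 genes for testing. Controls were 4 male Dnm2 +/+ mice and the mutants 4 male Dnm2 +/K562E mice, all 2 months old, on a background labelled C57BL/6 and given in the paper's methods as the J substrain. The mutation replaces a lysine of dynamin 2, a large GTPase that cuts membrane vesicles free, by a glutamate. It was introduced at the endogenous Dnm2 locus, so every cell of the animal carries 1 mutant and 1 normal allele, and no muscle-specific driver was involved. The soleus, a hindlimb muscle rich in slow fibres, was ground whole, so fibres, satellite cells, vessels, nerve and connective tissue all contributed RNA.

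The myogenic regulatory factors are basic helix-loop-helix proteins that bind the E-box sequence CANNTG together with ubiquitous E proteins. Myf5 and Myod1 commit cells to the muscle lineage and mark satellite cells and myoblasts, Myog drives terminal differentiation and also rises in fibres that lose their nerve supply, and Myf6 is the factor that persists in mature fibres. The Mef2 proteins bind A/T-rich sites next to E-boxes and act with the myogenic factors on contractile and metabolic genes. Mymk (myomaker) and Mymx (myomixer) are the membrane proteins that let myoblasts fuse, and Cdh15 (M-cadherin) holds satellite cells and myoblasts against fibres.

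The stretches just upstream of Myog and Myf5 are shown because these were the 2 genes that passed both thresholds of the comparison. The Myog stretch lies at chr1:134289754-134289988 of GRCm38 on the plus strand and ends at the base before the annotated first exon. The Myf5 stretch lies at chr10:107486135-107486384 on the minus strand and ends at the base before that gene. Both are written 5′ to 3′ from the RefSeq promoter windows. Capitals mark matches to CANNTG, to CTANNNNTA, or to TCAGGTT, the sequence known as MEF3. In these patterns N is any base, so a match to CTANNNNTA need not be A/T-rich.
Myog: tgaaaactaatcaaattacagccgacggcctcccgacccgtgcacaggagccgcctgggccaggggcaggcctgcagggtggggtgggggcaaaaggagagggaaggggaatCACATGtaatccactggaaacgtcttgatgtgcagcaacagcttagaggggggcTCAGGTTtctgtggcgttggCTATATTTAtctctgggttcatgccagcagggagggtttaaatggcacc
Myf5: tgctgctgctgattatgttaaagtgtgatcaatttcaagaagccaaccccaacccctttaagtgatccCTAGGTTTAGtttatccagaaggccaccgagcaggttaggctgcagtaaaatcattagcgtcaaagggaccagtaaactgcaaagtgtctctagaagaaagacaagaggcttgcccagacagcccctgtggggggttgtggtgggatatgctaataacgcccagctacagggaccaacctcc
Matches on either strand were counted in windows of 300 bases, from 250 before to 50 after each RefSeq start. In the Myog stretch, CACATG stood 138 bases, TCAGGTT 84 bases and CTATATTTA 64 bases before the start. A second match to CANNTG 12 bases before the start fell inside the annotated first exon and is not printed. Of all 32851 promoter windows, 72.3% held CANNTG, 21% CTANNNNTA and 4.07% TCAGGTT. The Myf5 window held no CANNTG, and its CTANNNNTA match 182 bases before the start overlapped a reverse-strand match 1 base further on. The full MEF2 consensus, found in 3.19% of windows, was absent from both. Windows were at hand for 6 of the 10 genes. Of the other 4, the Mef2a window held the MEF2 consensus 2 bases before the start, and the Cdh15 window held CANNTG 4 times. The Mef2d window held none of the 4 patterns. Mef2c had 3 windows. Window 1 held CANNTG 2 times and TCAGGTT 1 time, window 3 held CANNTG and CTANNNNTA 1 time each, and window 2 held none. These matches describe letters in a window and say nothing about binding.

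The libraries held 33407430 to 48832814 counts each, and levels are given as normalized CPM, which are counts per unit of TMM-scaled library size. TMM factors were 0.915 to 0.959 in controls and 1.037 to 1.103 in mutants, so the scaling shifted the genotypes against each other. Scaling by library size alone moved the median log2 fold change of all tested genes from 0.00743 to 0.219, and the genes called from 1806 higher and 1099 lower to 2865 higher and 564 lower. Dnm2 itself averaged 66.3 ± 4.74 normalized CPM in controls and 73.4 ± 2.43 in mutants (SD, n = 4 each), with an adjusted p of 0.0909 by edgeR's quasi-likelihood test. The slow myosin Myh7, a gene of the slow fibres, ran from 5808 to 6384 normalized CPM among controls and from 3694 to 4643 among mutants. The library of control 4 stood apart in some of the fast-fibre genes examined, but not in most. Its Pvalb was 946.1 normalized CPM against 341.5 to 469.1 in the other controls. Its Myh4, a gene chosen after its values were seen, was 3134 against 162.8 to 426.4. Actn3 was also high there, at 757.7 against 235.9 to 389.2. Myh1, Myh2, Tnni2 and Tnnc2 instead had their lowest control value in control 4, Myh1 at 4027 against 4728 to 5212. Values of Myf6, Myod1, Mef2a and the cofactor list without control 4 are given with those results.

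Of the 10 genes, Myog was called higher and Myf5 lower in Dnm2 wt/K562E soleus, by edgeR's quasi-likelihood test, where a call needs both an adjusted p under 0.05 and a log2 difference of 0.58 or more. Over all tested genes, 12.9% were called higher and 7.85% lower by the same rule, so 1 of 10 in each direction is near the background share. By the adjusted p alone, Myog, Myf6 and Mef2c were higher and Myf5, Mef2a and Mef2d lower, against background shares of 22.2% and 21.7%, though Mef2a turned direction under library size alone. Myod1, Mymk, Mymx and Cdh15 did not pass. The median log2 fold change of the 10 was 0.21. By fold change, Myog ranked 49 among all 14001 genes in the upward direction and Myf5 ranked 73 in the downward direction.

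**Figure D1:**
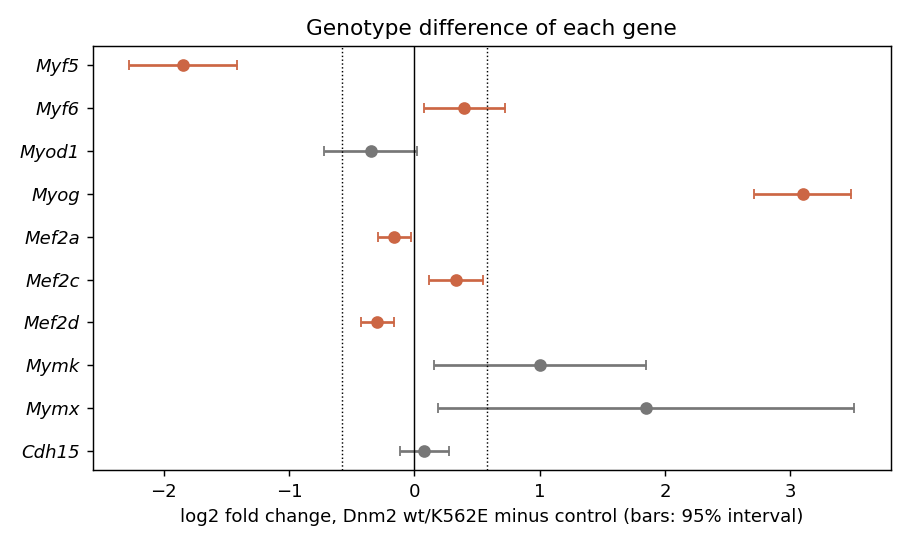
Log2 fold change of each of the 10 genes, Dnm2 wt/K562E minus control, with its 95% interval (4 mice of each genotype). Orange marks an adjusted p under 0.05, grey the rest, and dotted lines a log2 fold change of 0.58 in either direction. Myog at 3.10 and Myf5 at -1.85 lie far outside the dotted lines, while the Mef2 genes stay between them.

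Myog (ENSMUSG00000026459, GRCm38 chromosome 1, 134289989 to 134292548, plus strand), the factor of terminal differentiation, was at 6.91, 4.395, 6.97 and 7.74 normalized CPM in controls 1 to 4. The same gene was at 67.1, 46.6, 47.9 and 61.5 in Dnm2 wt/K562E mice 1 to 4. The lowest mutant value was far above the highest control, and no mutant overlapped the controls. The means were 6.50 ± 1.46 and 55.8 ± 10.1 (SD, n = 4), a log2 fold change of 3.10 (SE 0.18, 95% interval 2.71 to 3.49, adjusted p 7.90e-07 by edgeR's quasi-likelihood test). On the linear scale the fitted ratio was 8.56, with an interval of 6.53 to 11.2. The counts behind these values were 148 to 311 in controls and 2005 to 2470 in mutants. In whole tissue, more Myog per nucleus and more nuclei with Myog cannot be told apart.

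Myf5 (ENSMUSG00000000435, chromosome 10, 107482908 to 107486134, minus strand), which marks satellite cells and myoblasts in adult muscle, went the other way. It was at 3.81, 3.39, 3.34 and 2.71 normalized CPM in controls 1 to 4 and at 1.06, 0.906, 0.954 and 0.757 in mutants 1 to 4. Every mutant was below every control, and the spread inside each genotype was small beside the gap between them. The means of 3.31 ± 0.455 and 0.919 ± 0.126 (SD, n = 4) differed by a log2 fold change of -1.85 (SE 0.20, interval -2.28 to -1.41, adjusted p 3.25e-05). Myf5 rested on 92 to 149 counts in controls and 28 to 40 in mutants.

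Myf6 (chromosome 10, 107492853 to 107494737, minus strand) lies 6718 bases from Myf5 on the same strand, and the 2 neighbours moved in opposite directions. Myf6, the factor of mature fibres, was at 52.8, 77.9, 72.7 and 88.7 normalized CPM in controls and at 106.8, 77.5, 103.1 and 98.1 in mutants. Of the mutants, 3 exceeded every control, while mutant 2 lay inside the control range. The log2 fold change of 0.40 (SE 0.15, interval 0.08 to 0.72) only just passed the adjusted threshold, at 0.0463. Leaving out control 1, the lowest, gave 0.27 with an adjusted p of 0.0657. Leaving out control 4, the highest, gave 0.50 with an adjusted p of 0.0191.

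Myod1 (chromosome 7, 46376474 to 46379099, plus strand), the other determination factor, did not pass the test. Its levels were 9.56, 10.3, 10.8 and 14.1 normalized CPM in controls and 10.7, 10.02, 7.56 and 6.78 in mutants. The genotypes overlapped, although mutants 3 and 4 lay below all controls. The log2 fold change was -0.35 (interval -0.72 to 0.02, adjusted p 0.116), which leaves room for a fall of the size called elsewhere as well as for none. The highest control was control 4, and without it the value was -0.23 with an adjusted p of 0.289. Whether the high Pvalb, Myh4 and Actn3 of that library had a part in it was not tested.

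**Figure D2:**
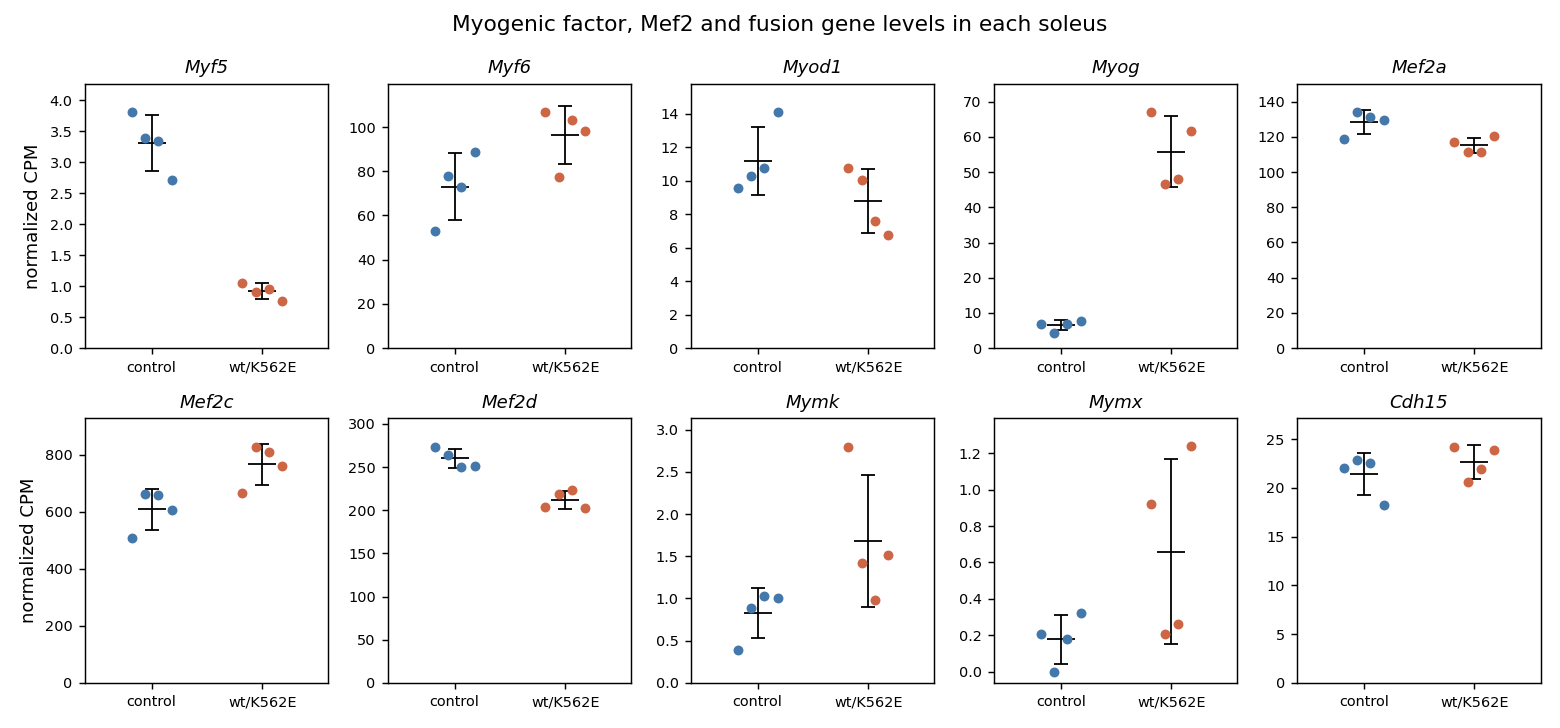
Normalized CPM of each of the 10 genes in every soleus, controls in blue and Dnm2 wt/K562E mice in orange, in the order of their numbers 1 to 4, with mean and SD as black bars. Myog, Myf5, Mef2c and Mef2d show no overlap between genotypes, whereas Myf6, Myod1, Mef2a, Mymk, Mymx and Cdh15 overlap.

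Levels of different myogenic factors were set side by side per kilobase of annotated exon. In controls the order was Myf6 at 57.8 ± 11.9 normalized CPM per kb, Myod1 at 6.00 ± 1.08, Myog at 4.35 ± 0.974 and Myf5 at 1.59 ± 0.219 (SD, n = 4). Myod1 and Myog overlapped between mice, and all other neighbours in that order were separate. In mutants Myf6 was still the highest at 76.3 ± 10.4, but Myog came second at 37.3 ± 6.76, above Myod1 at 4.71 ± 1.02 and Myf5 at 0.441 ± 0.0603 in every mouse. As a share of the sum over the 4 factors, Myog went from 6.4% ± 1.88 to 31.3% ± 2.92, and Myf6 from 82.6% ± 3.18 to 64.2% ± 3.23. Myf6 therefore took a smaller part of the family although its own level was not lower.

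**Figure D3:**
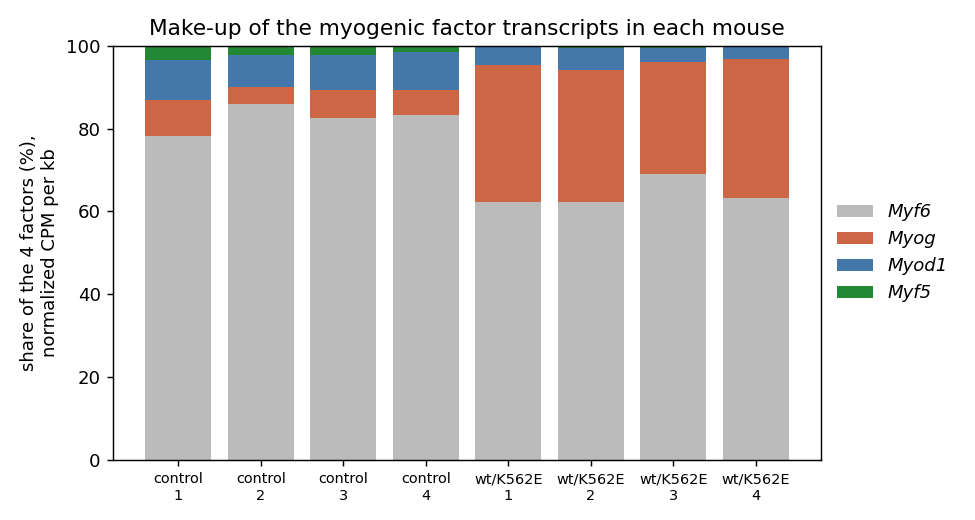
Share of each myogenic regulatory factor in the sum of the 4 (normalized CPM per kb of exon, in %), 1 bar per mouse. Myog fills 4.1% to 8.66% of a control bar and 27.1% to 33.5% of a Dnm2 wt/K562E bar.

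A ratio between 2 genes of one mouse does not depend on how libraries are scaled. The log2 ratio of Myog to Myod1 was -1.22 to -0.465 in controls and 2.21 to 3.17 in mutants, without overlap. These ratios are not divided by gene length, so they compare genotypes and not the levels of the genes. This difference was 3.46 ± 0.255 (SE, exact two-sided permutation test, p = 0.0286, the smallest that 4 against 4 mice can give, and 0.0476 adjusted over 5 ratios). The log2 ratio of Myog to Myf6 rose from -3.48 to -0.795, by 2.69 ± 0.27, without overlap and with the same exact p of 0.0286 and adjusted p of 0.0476. The rise of Myog thus held against both the determination factor and the fibre factor.

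The Mef2 genes moved little, and not together. Mef2c (chromosome 13, 83504034 to 83667080, plus strand), the family member that maintains sarcomere genes in fibres, was at 507.9, 660.1, 658.7 and 606.2 normalized CPM in controls and at 665.9, 827.5, 809.9 and 758.2 in mutants. Mutant 1 stood just above the highest control, so the genotypes did not overlap. Its log2 fold change was 0.33 (SE 0.10, interval 0.12 to 0.55, adjusted p 0.0174). Without mutant 2, the highest, it was 0.29 with an adjusted p of 0.0527.

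Mef2d (chromosome 3, 88142372 to 88172086, plus strand), which has a muscle-specific splice form, was at 273.5, 264.3, 250.0 and 251.7 normalized CPM in controls and at 203.7, 219.2, 223.2 and 202.1 in mutants. All mutants lay below all controls. The log2 fold change of -0.29 (SE 0.06, interval -0.42 to -0.16) had an adjusted p of 0.00229. It depended on the scaling, since with library size alone it was -0.08 with an adjusted p of 0.289. Of the 10 genes, Myog and Mef2c were without overlap in the upward direction and Myf5 and Mef2d in the downward direction, against 20.6% and 20.5% of all tested genes.

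Mef2a (chromosome 7, 67231163 to 67372858, minus strand) is the third family member expressed in adult fibres. Its values were 118.9, 134.1, 131.4 and 129.5 normalized CPM in controls and 116.9, 111.3, 111.6 and 120.6 in mutants. Only mutant 4 reached into the control range, just above control 1. This difference of -0.16 (log2, SE 0.06, adjusted p 0.0476) was small, had an adjusted p of 0.0774 without control 4 (-0.16), and turned to 0.05 with an adjusted p of 0.481 under library size alone. No direction can be given to Mef2a from these data.

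Whether the strand was used in counting is not given in the sources used here, and this touches Mef2a and Mef2d. Mef2a shares 302 exon bases with Lysmd4 and Mef2d 531 with 1700113A16Rik, both on the opposite strand. Of the 31-base stretches of their transcripts, 5.31% of Mef2a and 8.27% of Mef2d also occur in another gene, compared with 0.0436% for Mef2c and none for the other 7 genes. Per kilobase, Mef2d at 43.4 ± 1.86 and Mef2c at 38.7 ± 4.55 overlapped in controls, with Mef2a lower at 8.75 ± 0.452 (SD, n = 4). In mutants Mef2c at 48.7 ± 4.62 was above Mef2d at 35.4 ± 1.79 in every mouse. These per-kilobase levels use the union of all annotated exons, which is 14681 bases for Mef2a, 15715 for Mef2c and 5985 for Mef2d, so they would change with the transcript form in use.

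The ratio of Mef2c to Mef2a, on the log2 scale, was 2.09 to 2.33 in controls and 2.51 to 2.89 in mutants. It rose by 0.49 ± 0.104 (SE), a 1.41-fold shift with the genotypes separate (p = 0.0286 by the exact permutation test, adjusted 0.0476). Mef2d to Mef2a differed by -0.14 ± 0.0889, with overlap and an exact p of 0.257. Mef2c thus rose against Mef2a in a comparison that no scaling between libraries can alter, and Mef2c to Mef2d was not among the ratios compared.

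**Figure D4:**
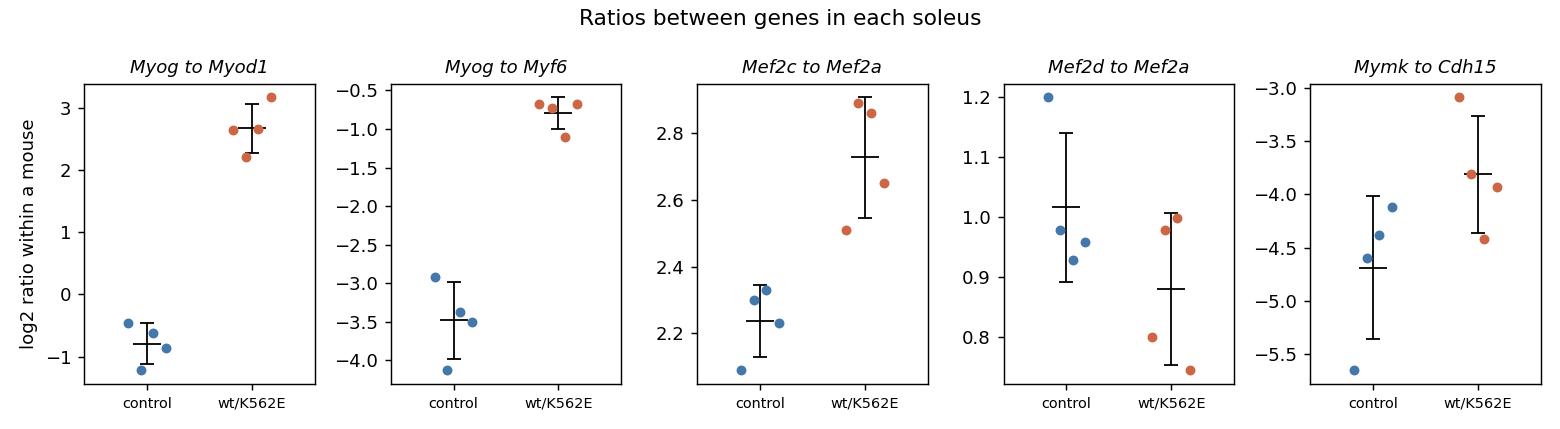
Log2 ratio between 2 genes within each soleus for the 5 ratios compared, controls in blue and Dnm2 wt/K562E mice in orange, with mean and SD; vertical axes differ between panels and do not start at 0. The 3 ratios on the left show no overlap between genotypes, and the 2 on the right overlap.

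The fusion genes had few counts. Mymk (chromosome 2, 27061636 to 27072179, minus strand) had 13, 30, 46 and 34 counts in controls and 103, 61, 41 and 56 in mutants. As normalized CPM these were 0.387, 0.891, 1.03 and 1.00 against 2.80, 1.42, 0.978 and 1.51. Of the mutants, 3 exceeded all controls and mutant 3 did not. The log2 fold change was 1.00 (SE 0.38, interval 0.16 to 1.85) with an adjusted p of 0.0539, and leaving out mutant 1, the highest, took it to 0.65 with an adjusted p of 0.192.

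Mymx (chromosome 17, 45600971 to 45602102, minus strand), which works with Mymk at the membrane, was lower still. It had 7, 0, 8 and 11 counts in controls and 34, 9, 11 and 46 in mutants, or 0.209, 0, 0.179 and 0.324 normalized CPM against 0.923, 0.209, 0.262 and 1.24. Mutants 1 and 4 stood above all controls, and mutants 2 and 3 lay among them. This gave a log2 fold change of 1.85, which had an interval of 0.19 to 3.51 and an adjusted p of 0.0674. The call for either fusion gene depended on the test: by edgeR's exact test the adjusted p was 0.0264 for Mymk and 0.0287 for Mymx, and by DESeq2 0.0307 and 0.0393.

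Cdh15 (chromosome 8, 122847966 to 122867397, plus strand), the adhesion gene of satellite cells and myoblasts, had the smallest difference of the 10. It was at 22.02, 22.8, 22.5 and 18.3 normalized CPM in controls and at 24.2, 20.6, 21.9 and 23.8 in mutants. Its genotype difference was 0.08 (log2) with an interval of -0.12 to 0.28 (adjusted p 0.497), so a change past the 0.58 threshold lay outside the interval. Per kilobase it was at 6.58 in controls and 6.97 in mutants, above Mymk at 0.548 and 1.11 in every mouse. Mymk to Cdh15 differed by 0.88 ± 0.433 on the log2 scale, with overlap (exact two-sided permutation test, p = 0.0857, adjusted 0.107).

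Among the dimer partners and inhibitors of the myogenic factors, 6 of 11 were higher by adjusted p, beside 22.2% of all tested genes. None was lower, and 2 were called higher with both thresholds, beside 12.9% of all tested genes. The called genes were Twist1, a repressor of myogenic factors found mostly in connective tissue cells, at 1.20 on the log2 scale (adjusted p 0.000208), and Id2, which withholds E proteins from the factors, with 0.70 (adjusted p 0.00294). Twist1 averaged 2.31 ± 0.215 normalized CPM in controls and 5.32 ± 0.997 in mutants (SD, n = 4). The median log2 fold change of the list was 0.33, beside 0.00743 over all tested genes.

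Of 18 tested cofactors of the myogenic and Mef2 factors, 9 were lower and 1 higher by adjusted p. Over all tested genes these shares were 21.7% and 22.2%. Called lower were 5, beside 7.85% of all tested genes. The 5 became 3 without control 4, without mutant 4, or with library size alone. Dach2, a transcriptional cofactor that represses Myog in innervated muscle, was at 13.2 ± 2.64 normalized CPM in controls and 5.38 ± 0.608 in mutants (log2 fold change -1.30, adjusted p 5.14e-05). Hdac5, a class II deacetylase that binds Mef2 proteins, stood at -0.58 on the log2 scale (adjusted p 0.000125), and Eya1, a transcriptional coactivator of the same network, -1.08 (adjusted p 0.00113). The median of the list was -0.19.

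Genes of young and differentiating fibres went up more often than down. Of 15, 8 were called higher and 2 lower, beside 12.9% and 7.85% of all tested genes. By adjusted p alone 8 were higher and 3 lower, beside 22.2% and 21.7% of all tested genes. The rest of the list did not pass, among them Myh8 at 0.09 (log2, adjusted p 0.594) and Actc1 at 0.35 (log2, adjusted p 0.0902). Whether the myogenic factors had a part in the differences of this list was not tested. Myl4, the embryonic light chain, went from 8.67 ± 1.24 to 248.9 ± 47.6 normalized CPM (log2 fold change 4.84), Myh3, the embryonic myosin heavy chain, from 23.1 ± 2.66 to 330.3 ± 57.1 (3.84), and Chrnd, the delta subunit of the acetylcholine receptor, from 7.07 ± 0.459 to 44.4 ± 6.22 (2.65). The adjusted p was 9.34e-08 for Myl4 and Myh3 and 1.24e-07 for Chrnd. Called lower were Ckm, the creatine kinase of mature fibres, at -1.02, and the cell cycle inhibitor Cdkn1c at -1.12. The list's median log2 fold change was 0.73.

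The list of denervation-responsive genes shares Myh3, Chrnd, Ncam1 and others with the one before. Of 12, 10 were called higher and 1 lower, beside 12.9% and 7.85% of all tested genes. The median log2 fold change was 1.77. Besides Myh3 and Chrnd, the adhesion molecule Ncam1 rose from 18.5 ± 0.735 to 61.8 ± 7.52 normalized CPM (log2 fold change 1.74, adjusted p 5.41e-07). The gene called lower was Dach2, given above as a repressor of Myog in innervated muscle. Hdac4 did not pass (log2 fold change -0.06, adjusted p 0.729).

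Among 24 tested fusion genes outside the members, 4 were called higher and none lower, beside 12.9% and 7.85% of all tested genes, and the median was 0.09. The called genes with the smallest p were the tetraspanin Cd9 at 0.85 (adjusted p 2.79e-06), the immunoglobulin-family gene Kirrel at 0.83 (adjusted p 2.62e-05) and Myof (myoferlin) at 0.71 (adjusted p 0.000232). Several of these genes are also expressed by other cells of the tissue.

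Satellite cell markers split. Of 9 tested, 3 were called lower, namely Pax7, Chrdl2 and Calcr, and none higher, beside 7.85% and 12.9% of all tested genes. The summed level of the list was 340.8 to 385.8 normalized CPM in controls and 351.3 to 393.7 in mutants. That sum includes Itga7 and Sdc4, which other cells of muscle also express. Its largest control means were Notch3 at 106.6 normalized CPM and Itga7 at 101.8. Pax7, Chrdl2 and Calcr averaged 6.79, 5.05 and 2.14 in controls, so the sum hardly reflects these 3 genes. Pax7, the defining factor of satellite cells, was at 9.56, 5.35, 6.29 and 5.95 normalized CPM in controls and at 1.06, 2.14, 2.43 and 0.946 in mutants (log2 fold change -2.03, adjusted p 0.000367). Chrdl2 stood at -2.69 on the log2 scale (adjusted p 1.40e-05), and Calcr, the calcitonin receptor of quiescent satellite cells, at -3.47 (adjusted p 8.96e-05). The other tested markers of the list were not called. By adjusted p Itga7 was higher at 0.55 (adjusted p 0.000142) and Spry1 at 0.20 (adjusted p 0.0410). Notch3 was lower by adjusted p, at -0.50 (adjusted p 0.000130), the same direction as Pax7, Chrdl2 and Calcr. Heyl at 0.13, Megf10 at -0.02 and Sdc4 at -0.29 did not pass. Of the members found in satellite cells, Myf5 fell, and Cdh15 and Myod1 did not pass. Fewer satellite cells and less of these transcripts per cell cannot be told apart in bulk RNA. Of 9 genes of dividing cells, Mki67 and Ccna2 were called higher, at 0.84 and 0.83, beside 12.9% of all tested genes. Neither call held without control 2 or without mutant 1, where 0 of the 9 were called, and 1 was called without control 1, control 3 or mutant 3.

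**Figure D5:**
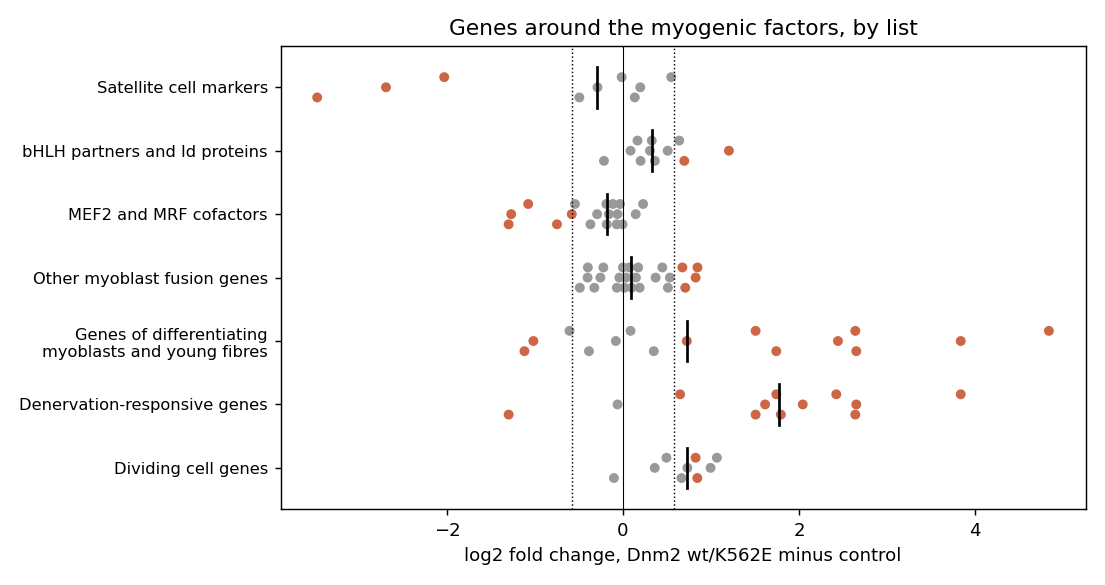
Log2 fold change of each tested gene of 7 lists around the members, Dnm2 wt/K562E minus control. Orange points were called with both thresholds, grey ones were not, the black tick is the list's median, and dotted lines mark 0.58 in either direction. The denervation-responsive genes have the highest median, 1.77, and the satellite cell markers the lowest, -0.29.

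Other cell types of the muscle moved with genotype as well. Over all tested genes, 12.9% were called higher and 7.85% lower, and by adjusted p alone 22.2% were higher and 21.7% lower. All 7 macrophage markers were called higher, with a summed level of 72.8 to 135.5 normalized CPM in controls and 179.3 to 295.6 in mutants. Fibroblast markers were called higher in 6 of 7, with sums of 1974 to 2939 and 4064 to 5244, and tendon markers in 5 of 6. The remaining fibroblast marker was lower by adjusted p. Endothelial markers were called lower in 1 of 7 and lower by adjusted p in 6, with sums of 1050 to 1095 and 740.7 to 872.6. Smooth muscle and pericyte markers were called lower in 3 of 6. By adjusted p, 4 of them were lower and 1 was higher. None of the 6 Schwann cell or 5 adipocyte markers was called, though 1 Schwann cell marker was lower by adjusted p. Slow fibre genes were called lower in 3 of 8 and lower by adjusted p in 7, and fast fibre genes in 8 of 10 by either rule. What part these other cells had in the values of the myogenic, Mef2 and fusion genes was not tested.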

How the data were processed

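RNA of soleus muscle from 4 control and 4 Dnm2 wt/K562E mice was sequenced. The authors trimmed reads (Trimmomatic 0.33), aligned them to GRCm38.p5 with Ensembl release 80 (STAR 2.5.1b) and deposited raw read counts per gene from featureCounts. In their counting the minimum mapping quality was 10, reads over several genes counted for each, and multi-mapping reads counted at the primary alignment. The paper describes poly A-enriched libraries, the labels a stranded total RNA kit, and the strand setting of the counting is not given in the sources used here.

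Symbols, positions and exon lengths came from GENCODE M21 (22647 of 22880 identifiers matched) and promoter windows from RefSeq on GRCm38.p6. Counts were filtered with filterByExpr (minimum count 10, minimum total 15), scaled by TMM and tested with the quasi-likelihood F-test of edgeR 4.0.16 in R 4.3.3, with Benjamini-Hochberg adjustment over 14001 genes. Standard errors follow from the F statistic. Ratios used log2 normalized CPM with a prior count of 2 and exact two-sided permutation tests over all regroupings of the mice. The fit was tested on simulated data. The alternatives were edgeR's exact test, median-ratio factors, DESeq2 1.42.0, no mitochondrially encoded genes, library size alone, 2 other filters, 2 replicate blocks, the adjusted p alone, and leaving out each mouse. Mouse numbers in the titles and in the descriptions were tried as blocks; the mice are different animals.

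The members and gene lists were chosen with earlier results of these data known. Text names the 10 members, Dnm2 and, per list, up to 3 called genes in each direction by p. Myh7, Myh8, Actc1, Myh1, Myh2, Myh4, Tnni2, Actn3, Hdac4 and the satellite cell markers past the rule are named besides, after their values were seen. The patterns CTANNNNTA and TCAGGTT were added to the search later. Counts of any 2 mice of 1 genotype differed beyond sampling noise (chi-square over its degrees of freedom 12.6 to 55.2), and each mouse counted as a replicate.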

Additional observations from a re-analysis of the deposited data

Results flagged for a closer look

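In 32 groups of 4 mice, 2 held a value far from the other 3, and chance alone gives about 1 in 20. Dnm2 in control 3 was 59.2 normalized CPM, against 68.5 to 68.8 in the other controls, and control 3 had the highest total count. The log2 ratio of Myog to Myf6 in Dnm2 wt/K562E mouse 3 was -1.10, against -0.733 to -0.671 in the other mutants. It still lay above all controls.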

How the results depend on the processing

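Over 17 alternatives, Myog kept its direction and an adjusted p under 0.05 in all 17 (log2 fold change 2.95 to 3.31), and so did Myf5 (-1.94 to -1.63). Mef2c passed in 16 of 17 and Mef2d in 16, Myf6 in 9, Mef2a in 5, Mymk in 5, Mymx in 6 of 15 (2 settings left it out), Cdh15 in 1 and Myod1 in 0. Mef2a turned to 0.0521 with library size alone, the setting that moved most values: it called 2865 genes higher, 564 lower and 4 members higher. By adjusted p alone, 3103 genes were higher and 3036 lower, and 3 members each way. Members called higher were 3 by edgeR's exact test and by DESeq2, and 2 with at least 10 counts in every mouse. They were 1 to 2 leaving out each mouse, 2 without mutant 2 (Mymx added) or mutant 3 (Mymk added).

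Same-numbered mice did not deviate together (mean correlation -0.114 by title numbers, -0.0302 by description numbers). With a replicate block on the title numbers 2 members were called higher, and with description numbers 3. Under the title block the 3 ratio differences are 3.46, 2.69 and 0.49 by construction, and their sign-flip p is 0.125, the smallest 4 pairs allow, so this block tests nothing here. Leaving out each mouse, the ratio of Mef2c to Mef2a differed by 0.44 to 0.57 and its exact p was 0.0571 without control 1 or control 4 and otherwise 0.0286, the smallest possible.

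Of the lists, library size alone took the called fast fibre genes from 8 to 4, slow fibre genes from 3 to 1 and the other fusion genes from 4 to 8. Dividing cell genes called higher ranged from 0 to 5. They were 0 under the title block.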
